A study of Mus musculus with 8 samples.

Results

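Rab proteins are small GTPases that give each membrane compartment its identity. They were examined across 3T3-L1 cells, a mouse preadipocyte line that turns into fat cells, with and without a hairpin (shRNA) that targets slincRAD, a long noncoding RNA. Members were all genes whose mouse symbol is Rab followed by a number and at most 1 further letter. The RefSeq table of assembly GRCm38.p6 lists 59 such genes. Of these, 57 had at least 1 probe (80 probes in all), and 55 were measured, among 26460 genes and unnamed transcripts. Rab36 and Rab44 had no probe, and Rab26 and Rab39 were well above background on fewer than 2 arrays.

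The first group, called sh8, was 3T3-L1 cells stably transfected with slincRAD-shRNA-8, and the second, called WT, was unmodified 3T3-L1 cells. Samples were taken from each line 2 days before confluence (day -2), at confluence (day 0), and at days +2 and +4. Each gave 1 one-colour array, 8 in all, so nothing was repeated within a line on a day. Both lines were grown in 10% newborn calf serum, and at confluence a hormone mix of 0.5 mM isobutylmethylxanthine, 1 µM dexamethasone and 167 nM insulin was given. The samples hold no line with a control hairpin, the labels do not say whether sh8 is 1 clone, and since slincRAD itself was not analysed here, the labels were not checked against their target.

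A Rab protein is switched on when an exchange factor (GEF) loads it with GTP, recruits effectors that tether, move or fuse a vesicle, and is switched off when a GTPase-activating protein, usually with a TBC domain, speeds GTP hydrolysis. Prenyl groups added to its tail hold it in the membrane, and GDI carries the inactive form back through the cytosol. In fat cells this cycle is best known from insulin, which acts through the GTPase-activating protein Tbc1d4 on Rab10 and related Rabs to bring the glucose transporter GLUT4 to the surface. Rab18 lies on lipid droplets.

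A level below is a probe's log2 processed intensity after subtraction of the 75th percentile of its array, which is therefore at 0. Levels of different probes are not comparable with each other, and a gene with several probes is given by its brightest. The array percentiles lay between 759.9 and 1239 intensity units, between 64.9% and 81.7% of probes stood well above background, and no spot was saturated. Precision is limited by the small number of arrays. The labels do not state that arrays come from separate cultures, so p-values measure only how a difference between the lines varied between days, or a difference between days between the lines, which may be partly technical. The arrays of days -2 and 0 lay on 1 slide and those of days +2 and +4 on another, and on each slide WT took positions 1 and 2 and sh8 positions 3 and 4. Line and position therefore cannot be told apart, nor can day +2 against day 0 and slide. All 9 measured fibroblast and preadipocyte markers were well above background on all 8 arrays. Of 13 measured adipocyte markers, 8 or 9 were well above background before induction and all 13 at days +2 and +4. More epithelial and lung epithelium markers were also well above background on the second slide, so this count cannot tell induction and slide apart.

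The results between the lines turn on Rab12 and Rab29, whose probes were bright in WT and dim in sh8. The 250 bases before the annotated start of each gene are shown because these lie where transcription of the 2 genes begins. They come from RefSeq on GRCm38.p6 and are written along the gene, 5′ to 3′, at chr17:66519671-66519920 on the minus strand and chr1:131867027-131867276 on the plus strand. Capitals mark every match, on either strand, to the letters searched. These were the TATA box as TATAAA, the CCAAT box as its own letters, the GC box as GGGCGG, the palindromic E-box as CACGTG, and AACTACATTTCCCA, which is the longest inverted repeat in the window of Rab29, added after that window had been read.
Rab12: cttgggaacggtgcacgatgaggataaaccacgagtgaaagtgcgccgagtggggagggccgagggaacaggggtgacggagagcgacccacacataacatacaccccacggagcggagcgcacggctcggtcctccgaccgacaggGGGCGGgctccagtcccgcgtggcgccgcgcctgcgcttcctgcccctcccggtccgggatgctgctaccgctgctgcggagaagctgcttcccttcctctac
Rab29: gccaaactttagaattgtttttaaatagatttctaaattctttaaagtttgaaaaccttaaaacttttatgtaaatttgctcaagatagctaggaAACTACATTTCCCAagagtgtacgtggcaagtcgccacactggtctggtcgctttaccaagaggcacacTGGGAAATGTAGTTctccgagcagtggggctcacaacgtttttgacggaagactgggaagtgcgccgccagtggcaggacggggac
The window of Rab12 holds 26 CG pairs and is 67.6% G and C, with 1 match to GGGCGG, a sequence found in 32.7% of 32851 such windows. The window of Rab29 holds 9 CG pairs and is 44% G and C. It holds AACTACATTTCCCA once on each strand, and 0.18% of windows hold that sequence at all, among them 1 of the 60 windows of Rab genes, which is that of Rab29. Neither window holds the letters of the TATA box, the CCAAT box or the E-box, which occur in 12.4%, 33.9% and 6.02% of windows. The 60 windows of Rab genes belong to 48 genes, so some genes count more than once. Their median number of CG pairs was 15, against 6 in all windows. These matches describe the letters and do not show that a factor binds.

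Across the 4 days, sh8 cells had lower levels of Rab12, Rab29 and several other Rabs of the late endosome and lysosome than WT cells, and higher levels of a smaller set led by the secretory Rab3b. With limma (a model of day and line, adjusted by Benjamini and Hochberg over all 26460 features, threshold 0.05), 7 of 55 Rab genes were higher in sh8 and 11 were lower. Over all features 16.8% were higher and 10.3% lower. The median difference was -0.030 over the Rab genes and 0.13 over all features. All 18 calls were lost when day +2 or day +4 was left out, or on the first slide alone (0 higher and 0 lower each time). Without day 0 only the call of Rab29 was kept, and without day -2 11 of the 18 were. On the second slide alone 3 were higher and 7 lower. The shares of all features called in these smaller fits are not given here, so these losses cannot be read as particular to Rab genes. Quantile scaling lowered the median of all features to 0.023 and gave 3 Rab genes higher and 9 lower, without the calls of Rab18, Rab3a, Rab19, Rab4b, Rab42 and Rab3b. The higher share of all calls over the features was then 50.7%, and it was 62.0% with the 75th percentile.

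**Figure D1:**
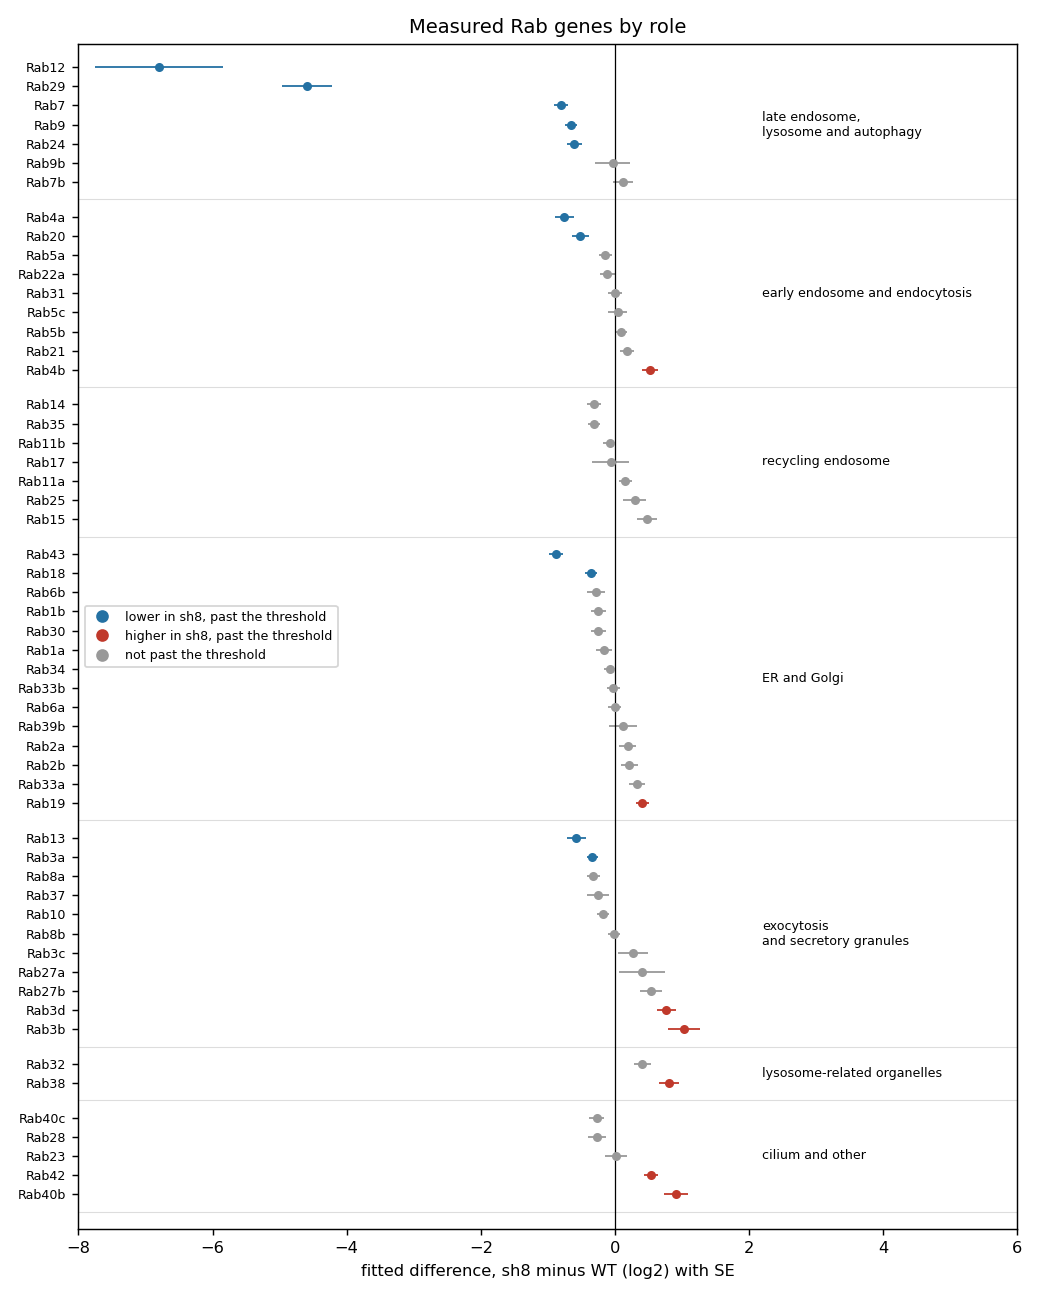
Fitted difference in level between sh8 and WT (log2, x axis, bars give the SE) for each of the 55 measured Rab genes (y axis), grouped by the compartment each is best known for. Rab12 and Rab29 lie far to the left at -6.80 and -4.59, 5 of the 7 genes of the late endosome group are lower, and the recycling endosome group has no call.

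Rab12, which directs cargo such as the transferrin receptor from endosomes to lysosomes, had levels of -8.01, -7.65, -3.43 and -3.23 in sh8 at days -2, 0, +2 and +4, against 0.97, 1.19, 1.28 and 1.42 in WT. The lines did not overlap, and the WT levels spanned less than 0.5 while those of sh8 fell into a lower pair before induction and a higher pair after it. In sh8 the probe was not well above background at days -2 and 0, so there the difference is a bound. It was at least 107-fold lower in sh8 at day -2 and at least 94.4-fold lower at day 0. Such a bound sets the WT level against the higher of the probe's own signal and the lowest signal well above background on that sh8 array. At days +2 and +4 the probe was measured in both lines and differed by -4.71 and -4.66. The fitted difference over all days was -6.80 ± 0.95 (SE, limma adjusted p = 0.0162), and on the second slide alone, where both lines were measured, it was -4.68 (adjusted p = 0.0301). With normexp background correction and quantile scaling it was -4.53. Its call was lost without day 0, day +2 or day +4 (adjusted p = 0.0674, 0.0591 and 0.0681). Rab12 had this 1 probe only, so no second probe checks it.

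Rab29 acts at the trans-Golgi network and lysosome and recruits the kinase LRRK2. Its brightest probe had levels of -5.02, -5.53, -4.22 and -4.11 in sh8 at days -2, 0, +2 and +4, against 0.046, 0.14, -0.48 and -0.21 in WT. Every sh8 level lay more than 3 log2 units under every WT level. At day 0 the probe was not well above background in sh8 and was at least 45.6-fold lower there. The fitted difference was -4.59 ± 0.37 (SE, limma adjusted p = 0.00936), and it lost its call without day +2 or day +4 (adjusted p = 0.0586 and 0.0583). A second, dimmer probe was well above background on all 8 arrays. It read -3.61, -3.70, -3.72 and -2.80 in sh8 and -1.84, -1.86, -2.17 and -2.08 in WT. The second probe was lower in sh8 on every day too and by a smaller amount, with a mean difference of -1.47. The mean of both probes differed by -3.03, and with normexp background correction and quantile scaling the brightest differed by -3.23, both past the threshold.

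**Figure D2:**
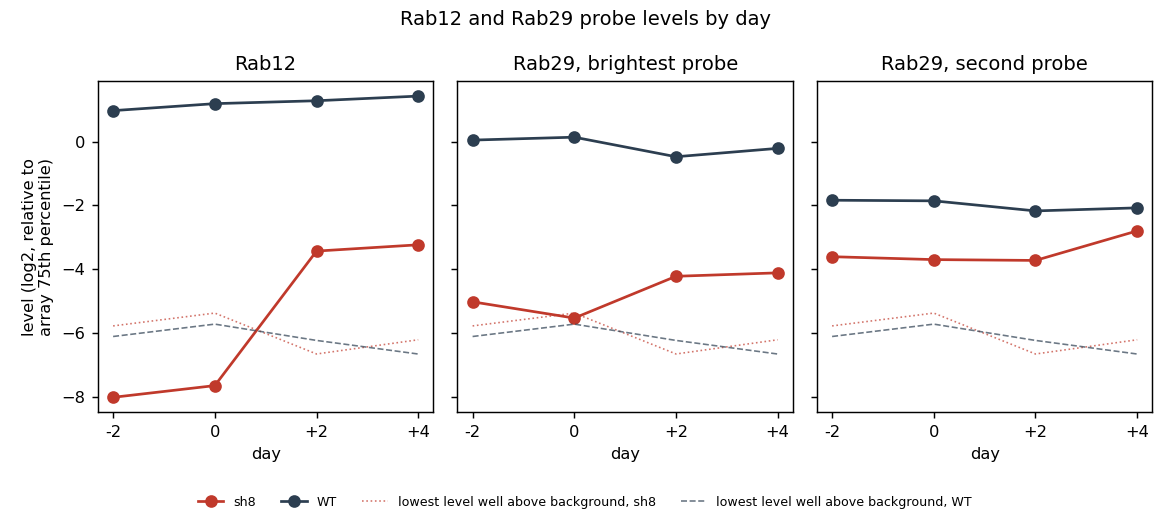
Level (log2, relative to the array's 75th percentile, y axis) by day (x axis) for the probe of Rab12 and both probes of Rab29, in sh8 (red) and WT (dark). Thin lines give the lowest level well above background on each array. The sh8 points of Rab12 lie under that line at days -2 and 0 and reach -3.43 and -3.23 afterwards, while both probes of Rab29 keep sh8 under WT on all 4 days.

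The measured genes nearest to Rab12 and Rab29 in the annotation were read for comparison, and genes not measured were passed over. Around Rab12 on chromosome 17, Mtcl1 was higher in sh8 (0.84 ± 0.10 SE, limma adjusted p = 0.0138). Ptprm differed by -1.02 (adjusted p = 0.0509), Ddx11 by -0.38 (0.4) and Lrrc30 by 0.42 (0.301), and these did not pass. Around Rab29 on chromosome 1, Nucks1 was lower (-1.10 ± 0.20, adjusted p = 0.0237) and Slc26a9 higher (0.44 ± 0.096, 0.033), while Slc41a1 (0.22, 0.124) and Slc45a3 (0.057, 0.699) did not pass. None of these 8 differences was as large as that of the Rab gene beside it.

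As background, Rab12 is a known substrate of the kinase LRRK2 and Rab29 binds it. None of the 6 measured genes of the LRRK group passed between the lines. Lrrk2 differed by 0.82 ± 0.34 (adjusted p = 0.134) and Lrrk1 by 0.26 (adjusted p = 0.106), and the group median was 0.20.

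The late endosome, lysosome and autophagy group held 7 measured genes. Of these, 5 were lower in sh8 and none higher (71.4% and 0%, against 10.3% and 16.8% of all features). The group median was -0.65, against -0.030 for all measured Rab genes. The groups were set with earlier results of these data known, and Rab29 also acts at the trans-Golgi network, so this count is not a test of the group. Rab7, which drives the fusion of late endosomes with lysosomes, read -0.80, -0.65, -1.37 and -1.09 in sh8 and -0.055, 0.0077, -0.35 and -0.32 in WT. The 2 lines did not overlap, and the fitted difference was -0.80 ± 0.10 (SE, limma adjusted p = 0.0146). Rab9, which returns mannose 6-phosphate receptors from late endosomes to the Golgi, read 3.34, 3.83, 3.32 and 3.69 in sh8 and 4.10, 4.44, 4.03 and 4.22 in WT. Its 3 probes differed by -0.65 (adjusted p = 0.0164), -0.70 and -0.68, so they gave nearly the same size. Rab24, an atypical Rab of autophagosomes, differed by -0.60 ± 0.10 (adjusted p = 0.0223) and was lower in sh8 on all 4 days, although its lines overlapped because both changed between days. Rab7b (0.12) and Rab9b (-0.030), relatives of Rab7 and Rab9, did not pass. Rab9b was well above background only at days +2 and +4.

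In the early endosome group 2 of 9 genes were lower in sh8 and 1 was higher (22.2% and 11.1%, against 10.3% and 16.8% of all features). Rab4a and Rab4b, which both send cargo quickly back from early endosomes to the surface, differed in opposite directions. Rab4a read 1.68, 1.56, 1.65 and 1.86 in sh8 and 2.10, 2.16, 2.72 and 2.80 in WT. In WT the levels at days +2 and +4 stood above both levels before induction, and in sh8 only that of day +4 did, by less, and the fitted difference was -0.75 ± 0.14 (SE, limma adjusted p = 0.0258). Its second probe differed by -0.38, and the mean of both probes did not pass (-0.57, adjusted p = 0.0529). Rab4b read -2.16, -2.49, -2.55 and -2.55 in sh8 and -2.38, -3.18, -3.08 and -3.22 in WT, with a fitted difference of 0.53 (adjusted p = 0.0344). It had 0.36 with quantile scaling (0.0805) and 0.21 with normexp background correction added (0.0986), so its call was lost in both. Rab20, found on phagosomes and early endosomes, was lower by a fitted -0.52 (adjusted p = 0.0402), with daily differences that ranged from -0.83 to -0.31. The 3 Rab5 genes, which set early endosome identity, did not pass, at -0.14 for Rab5a, 0.089 for Rab5b and 0.041 for Rab5c. Rab21, Rab22a and Rab31 lay between -0.11 and 0.18.

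No gene of the recycling endosome group passed between the lines. The 7 differences ran from -0.32 (Rab14) to 0.48 (Rab15). Rab11a and Rab11b, the main Rabs of slow recycling, differed by 0.15 and -0.079. Rab35, which returns receptors to the surface, had -0.32 ± 0.093 (SE, limma adjusted p = 0.0631).

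Of 14 ER and Golgi Rabs, 2 were lower in sh8 and 1 was higher (14.3% and 7.14%, against 10.3% and 16.8% of all features). Rab43, which takes part in transport between ER and Golgi, read 3.29, 3.90, 3.48 and 3.97 in sh8 and 4.26, 4.77, 4.48 and 4.65 in WT. The lines did not overlap and the fitted difference was -0.88 ± 0.10 (SE, limma adjusted p = 0.0128), with -0.67 for its second probe. Rab18, the lipid droplet Rab, was lower by a small and even amount, with daily differences from -0.43 to -0.31 and a fitted difference of -0.36 (adjusted p = 0.0401). Rab19, a Golgi Rab, was higher by 0.41 (adjusted p = 0.0403). With quantile scaling Rab18 had -0.24 (0.113) and Rab19 0.23 (0.164), and with normexp added -0.22 (0.0549) and 0.18 (0.146), none of which passed. The other 11, among them Rab1a, Rab2a and Rab6a, which serve general secretory transport, ran from -0.29 to 0.33.

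The exocytic group held 11 measured genes, 2 higher and 2 lower in sh8 (18.2% each, against 16.8% and 10.3% of all features). Rab3b, a Rab of regulated secretion, read -4.45, -3.73, -3.85 and -3.54 in sh8 and -4.76, -4.59, -5.36 and -4.98 in WT. The lines did not overlap, and the gap was wider at days +2 and +4 than before. The fitted difference was 1.03 ± 0.23 (SE, limma adjusted p = 0.0358). It was 0.80 with quantile scaling (adjusted p = 0.0641) and 0.31 with normexp background correction added (0.0769), which did not pass. Rab3d, of the same subfamily, read -1.58, -1.99, -2.34 and -2.38 in sh8 and -2.74, -2.78, -2.91 and -2.92 in WT, a fitted difference of 0.77 (adjusted p = 0.0237). The second, dimmer probe of Rab3d differed by only 0.036, so its probes disagree, and the mean of both did not pass (0.40, adjusted p = 0.0935). Rab3a was lower by a fitted -0.34 (adjusted p = 0.047) and Rab13, which serves tight junctions and in muscle cells GLUT4, by -0.58 (0.0402). With quantile scaling Rab3a had -0.24 (0.114) and lost its call. Rab13 had -0.38 with normexp added and kept its call. Rab10, the Rab best tied to GLUT4 in fat cells, had -0.18 ± 0.091 (adjusted p = 0.199). Its second, dimmer probe was well above background on all 8 arrays and differed by more, at -0.51, with daily differences from -0.95 to -0.068. Rab8a, which is close to Rab10 and is also a target of Tbc1d4, had -0.32 ± 0.094 (adjusted p = 0.0618). The lines of Rab8a did not overlap, and its second probe gave -0.38. Rab27a and Rab27b, which dock secretory granules, had 0.40 and 0.54 and did not pass. The second, dimmer probe of Rab27b was well above background on all 8 arrays. That probe differed by more, at 1.11, with daily differences from 0.81 to 1.44.

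Among the others, Rab38, a Rab of melanosomes and other lysosome-related organelles, was higher in sh8. It was well above background only at days +2 and +4, when it read -4.82 and -4.45 in sh8 and -6.00 and -5.40 in WT. The fitted difference over all days was 0.81 ± 0.15 (SE, limma adjusted p = 0.0247), and on the second slide alone it was 1.07 (adjusted p = 0.0371). With normexp background correction and quantile scaling it was 0.15, and in the authors' values it was 0.48, neither of which passed. An intensity trend in the variance also ended its call (adjusted p = 0.0609). Rab32, its closest relative, had 0.41 (adjusted p = 0.0758). Rab40b, which links to a ubiquitin ligase, read -1.23, -0.14, 0.34 and -0.037 in sh8 and -1.95, -1.42, -0.87 and -0.46 in WT. It was higher in sh8 on each day although the ranges of the lines overlapped, with a fitted difference of 0.91 ± 0.18 (adjusted p = 0.0273). Rab42 was higher by 0.54 (adjusted p = 0.0238), without overlap. It had 0.32 with quantile scaling (0.095) and 0.18 with normexp background correction added (0.139), and neither passed. Rab23, a regulator of Hedgehog signalling at the cilium, and Rab28 had 0.013 and -0.27.

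Counted without a test, the levels of sh8 lay wholly above those of WT in 4 Rab genes (Rab3b, Rab3d, Rab42 and Rab21) and wholly below in 7 (Rab12, Rab29, Rab43, Rab7, Rab4a, Rab9 and Rab8a). Over all features 10.2% lay wholly above and 7.09% wholly below. Differences had the same sign on all 4 days for 15 Rab genes higher in sh8 and 20 lower, against 32.3% and 20.4% of all features. On single days a pair of arrays allows no test, and a difference of at least 1 on the log2 scale was counted where at least 1 of the 2 arrays was well above background. Rab27a at day -2 differed by 1.27 but was well above background in neither line. At day -2, 1 Rab gene was higher (Rab3d) and 2 lower, where 4.74% of features were higher and 4.08% lower. At day 0, 1 was higher (Rab40b) and 2 lower (5.79% and 4.11% of features). At day +2, 3 were higher (Rab3b, Rab40b and Rab38) and 5 lower (13.9% and 5.42%), and the lower ones were Rab43, Rab7 and Rab4a beside Rab12 and Rab29. At day +4, 1 was higher (Rab3b) and 2 lower (9.42% and 5.17%). Rab12 and Rab29 were the lower genes on each of the other days. At day +2, 81.7% of probes were well above background in sh8 and 72.4% in WT, and whether this gap adds to the count of that day was not tested.

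**Figure D3:**
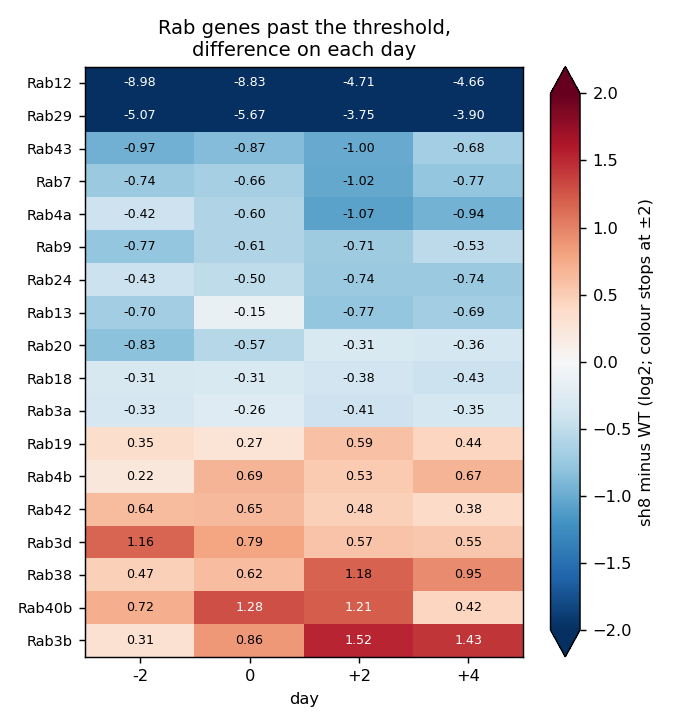
Difference in level between sh8 and WT (log2, colour and printed value) on each day (columns) for the 18 Rab genes past the threshold (rows), blue where sh8 is lower and red where it is higher. The printed values of each row keep their sign on all 4 days. Rab12 changes from -8.98 and -8.83 on the first 2 days to -4.71 and -4.66 on the others, and the values of Rab12 at days -2 and 0 and of Rab29 at day 0 rest on an sh8 level not well above background. Those of Rab38 at days -2 and 0 rest on levels not well above background in either line.

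Whether the difference between the lines itself changed after induction was asked with an interaction term (days +2 and +4 against days -2 and 0), which leaves 2 residual degrees of freedom and follows the slides. No Rab gene passed in limma, and 0 of all features did (0% higher and 0% lower). At an unadjusted p under 0.05, 7 Rab genes had a positive term and 2 a negative one, where 12% and 7.96% of features did. Rab12 had the lowest p of the Rab genes, with a term of 4.22 ± 0.15 (adjusted p = 0.121), and its sh8 level was not well above background before induction and was afterwards. Rab29 had 1.54 ± 0.26 (adjusted p = 0.133). Rab3c, a secretory Rab, had 0.91 ± 0.15 (adjusted p = 0.132), and it read 4.69, 5.08, 5.25 and 5.01 in sh8 and 4.79, 5.35, 4.48 and 4.32 in WT. Its WT levels were lower on the second slide and its sh8 levels were not, and of its other 2 probes the bright one read likewise, with differences of -0.16, -0.18, 0.81 and 0.92. Of the negative terms, the lowest p were those of Rab23 (-0.62 ± 0.16, adjusted p = 0.19) and Rab4a (-0.49 ± 0.16, 0.228). Rab23 read -2.52, -2.79, -3.54 and -3.68 in sh8 and -2.95, -3.00, -3.20 and -3.43 in WT, above WT before induction and below it after. Rab2a, an ER and Golgi Rab, read 1.52, 1.82, 1.47 and 1.25 in sh8 and 1.25, 1.32, 1.50 and 1.22 in WT, a term of -0.38 (adjusted p = 0.299).

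From day -2 to confluence at day 0, no Rab gene passed in limma, and 0 of all features did (0% higher and 0% lower). At an unadjusted p under 0.05, 11 Rab genes were higher and 5 lower at day 0, where 15.2% and 10.2% of features were. Rab15, a Rab of the recycling endosome, had the lowest adjusted p of the Rab genes (0.0543). It read -6.51 in sh8 and -6.79 in WT at day 0, when it was not well above background in either line, and -4.16 in sh8 and -5.09 in WT at day -2, so day 0 was at least 1.90-fold lower. Rab27b read -2.91 in sh8 and -3.56 in WT at day 0, against -1.40 and -2.09 at day -2, a fitted change of -1.49 ± 0.23 (adjusted p = 0.0677). Rab32 read 1.88 in sh8 and 1.67 in WT at day 0, against 2.59 and 2.43 at day -2 (-0.74, adjusted p = 0.107). The changes of Rab27b and of Rab32 were of like size in the 2 lines. Of those with higher values, Rab6b, a Golgi Rab, read 3.36 in sh8 and 3.80 in WT at day 0, against 2.24 and 2.82 at day -2, a change of 1.05 ± 0.19 (adjusted p = 0.0736). Rab24 had a change of 0.65 (adjusted p = 0.095), with 0.71 in sh8 and 1.22 in WT at day 0 against 0.10 and 0.53 at day -2. Rab13 had 0.79 (adjusted p = 0.104), and read -3.79 in sh8 and -3.63 in WT at day 0, against -4.85 and -4.15 at day -2. With an intensity trend in the variance, 6 Rab genes passed in this comparison, and the share of all features that then passed is not given here.

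After 2 days of induction, 6 Rab genes were higher than at day 0 and 2 were lower in limma, where 9% and 2.89% of features were. Rab15 was the most changed. At day +2 it read -3.09 in sh8 and -3.52 in WT, against -6.51 and -6.79 at day 0, when it was not above background. Day +2 was at least 4.74-fold higher (limma adjusted p = 0.00608), and it also stood above the levels of day -2 given above in both lines. Its second, dimmer probe read -4.99 in sh8 and -6.64 in WT at day +2, against -5.91 and -6.64 at day 0, mostly under the lowest signal well above background, so it gives no check. Rab38 (at least 1.1-fold, adjusted p = 0.0105), Rab25, a Rab of epithelial recycling (at least 1.81-fold, 0.0374), and Rab9b (at least 1.47-fold, 0.0375) were also not well above background in either line at day 0 and were at day +2. These 3 were well above background on no array of the first slide, so they entered the test only through the days when they were high. The other 3 higher calls came from the 51 Rab genes that at least 1 array of the first slide measured, and 6.09% of all such features were higher. With normexp background correction and quantile scaling the change was 1.07 for Rab15 (adjusted p = 0.0102), below its bound, 0.40 for Rab38 (0.0553), 0.26 for Rab9b (0.182) and 0.24 for Rab25 (0.2), and the mean of both Rab15 probes changed by 1.91. Rab25 read -4.76 in sh8 and -4.62 in WT at day +2, against -5.96 and -6.05 at day 0. Rab38 read -4.82 and -6.00 against -7.36 and -7.98. The other 2 higher genes were well above background throughout. Rab19 changed by 0.69 ± 0.14 (adjusted p = 0.0436) and Rab3a by 0.57 ± 0.12 (0.0488). With normexp background correction and quantile scaling Rab19 had 0.33 (0.122).

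The 2 lower genes were measured on all arrays. Rab7b, which moves cargo from endosomes to the trans-Golgi network, read 0.077 in sh8 and -0.23 in WT at day +2, against 1.26 and 1.23 at day 0. It fell in both lines, by a fitted -1.32 ± 0.21 (SE, limma adjusted p = 0.0279). Rab30, a Golgi Rab, read -1.05 in sh8 and -0.70 in WT at day +2, against -0.13 and -0.14 at day 0, a fitted change of -0.74 ± 0.16 (adjusted p = 0.0471). The second probe of Rab30 read -3.21 and -3.64 at day +2 against -2.18 and -2.71 at day 0, about as large a change. Rab31, an endosomal Rab, had -0.57 ± 0.15 (adjusted p = 0.0766), and read 0.17 in sh8 and 0.16 in WT at day +2, against 0.77 and 0.69 at day 0. Without day +4 only Rab15 and Rab38 passed, without day -2 4 Rab genes did, and with quantile scaling 3. The shares of all features in these fits are not given here.

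**Figure D4:**
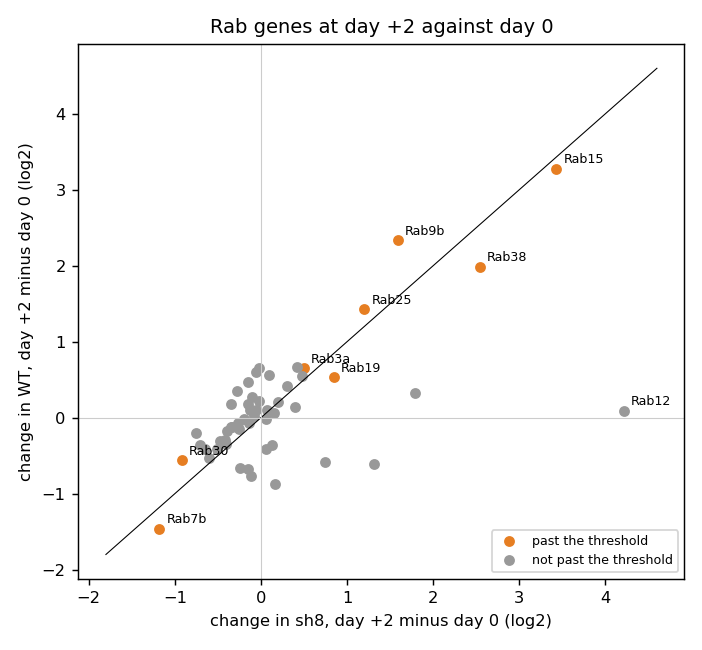
Change in level at day +2 against day 0 (log2) in sh8 (x axis) and WT (y axis) for the 55 Rab genes, orange where the comparison passed the threshold. The diagonal marks equal change. Rab15, Rab9b, Rab38 and Rab25 lie at the upper right, Rab7b at the lower left, and Rab12 lies far right, with 4.21 in sh8 and 0.091 in WT.

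Rab25, Rab38 and Rab9b were well above background on no array of the first slide and on all 4 of the second. Over all features 1253 (4.74%) had this pattern, and the reverse held for 3 features (0.0113%). Some marker lists of other cell types moved the same way, where 9% of all features were higher at day +2 than at day 0 and 2.89% lower. Of 13 measured epithelial markers, 9 were higher at day +2 than at day 0 and none lower, with a median change of 1.73, or 0.86 with the 8 not measured at day 0 set at their bounds. On the first slide 5 to 7 of the 13 were well above background, and on the second 12 or 13. The log2 of the summed level of these epithelial markers was 1.64 and 2.02 in sh8 and 1.1 and 1.64 in WT at days +2 and +4, against 1.67 and 1.54 in sh8 and 0.94 and 1.12 in WT at days -2 and 0. Of 10 lung epithelium markers 8 were higher, with a median change of 4.23, or 2.66 with 4 set at their bounds. The surfactant gene Sftpc, well above background on the second slide alone, was at least 117-fold higher (limma adjusted p = 0.00128). The log2 of the summed level of the lung markers was 4.12 and 4.32 in sh8 and 4.27 and 4.55 in WT at days +2 and +4, against 2.92 and 2.79 in sh8 and 3.40 and 3.28 in WT at days -2 and 0. Of 13 macrophage markers, 5 were higher at day +2 than at day 0 and 1 lower (38.5% and 7.69%). On the first slide 8 of these were well above background, and on the second 10 to 13. None of 6 melanocyte markers passed. The part of these lists in the change of Rab15, Rab25, Rab38 and Rab9b was not tested. Whether RNA of other cells entered the samples of days +2 and +4 was not tested either. This limit holds for every value of those days, also between the lines and in the interaction term. It thus covers the Rab12 levels of sh8 at days +2 and +4. The limit of the slide holds for every value at day +2 against day 0. In RNA of a whole culture, fewer cells of a type and less RNA per cell cannot be told apart.

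**Figure D5:**
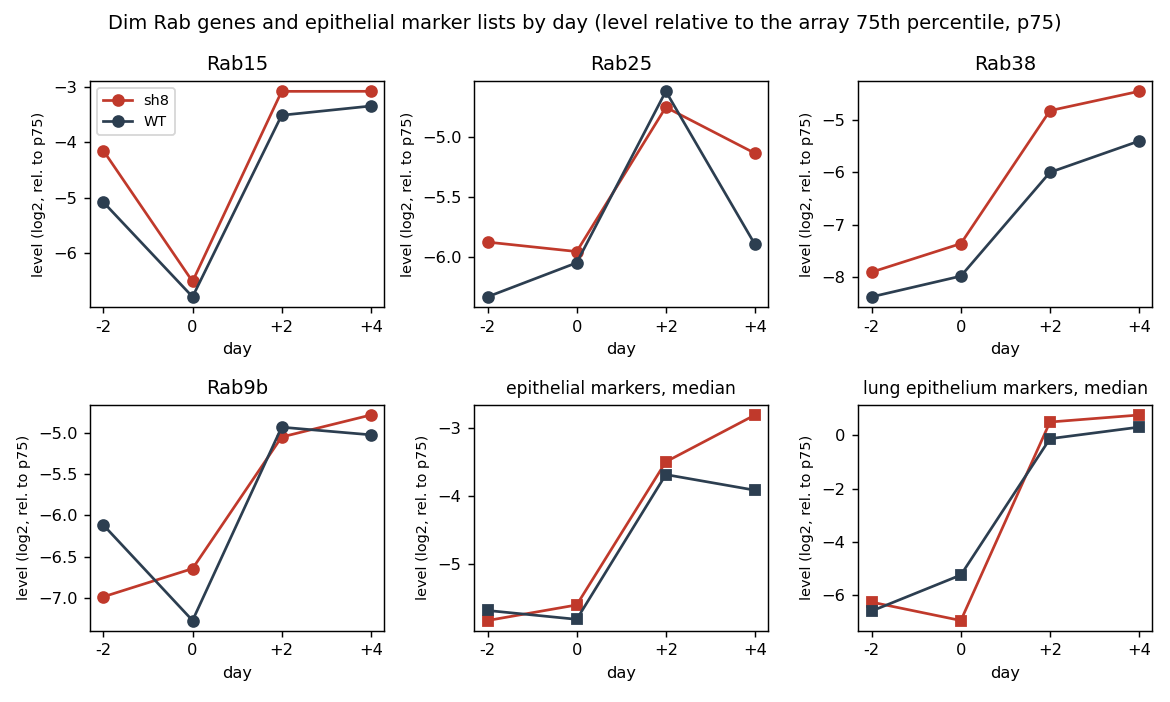
Level (log2, relative to the array's 75th percentile, p75, y axes, which differ between panels) by day (x axis) for 4 dim Rab genes (circles) and for the median of 13 epithelial and 10 lung epithelium markers (squares), in sh8 (red) and WT (dark). All 6 panels step up between days 0 and +2, which is also the step between the slides. Rab25 in WT returns to -5.90 at day +4.

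From day +2 to day +4, on 1 slide, no Rab gene passed in limma (lowest adjusted p = 0.839), and 0 of all features did (0% higher and 0% lower). At an unadjusted p under 0.05, 0 Rab genes were higher and 1 lower, where 3.8% and 1.63% of features were. That gene was Rab25, at -5.14 in sh8 and -5.90 in WT at day +4, against -4.76 and -4.62 at day +2 (a change of -0.83 ± 0.25). The lowest p among higher values was that of Rab19, which read -2.46 in sh8 and -2.90 in WT at day +4, against -2.74 and -3.33 at day +2. Rab22a followed, with 1.68 in sh8 and 1.69 in WT at day +4 against 1.07 and 1.49 at day +2. Rab43 had 3.97 in sh8 and 4.65 in WT at day +4, against 3.48 and 4.48 at day +2. These 3 changes, of 0.36, 0.40 and 0.33, were too small beside their SE of 0.14 to 0.17 to pass.

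The rest of the Rab cycle was read from lists chosen by function. Of 13 measured prenylation, GDI and Yip genes, 2 were higher in sh8 and none lower (15.4% and 0%, median 0.18). Over all features 16.8% were higher and 10.3% lower. The 2 were Rabggta, a subunit of the enzyme that attaches the prenyl groups (0.37 ± 0.090 SE, limma adjusted p = 0.0414), and Yipf3 (0.38, 0.0368). Of 44 activators, 8 were higher and 5 lower (18.2% and 11.4%, median 0.035), near the 16.8% and 10.3% of all features. Rin3, a Rab5 activator, was higher by 1.1 (adjusted p = 0.0115) and Rabif, a chaperone that keeps Rab10 and others stable, by 0.91 (0.0144), while Dennd2a was lower by a fitted -1.05 (0.0102) and Trappc2l, a TRAPP complex subunit, by -0.68 (0.0162). Of 34 TBC proteins, 4 were higher and 3 lower (11.8% and 8.82%, median 0.0086). Tbc1d12 had 0.90 (adjusted p = 0.0153), Tbc1d14, a regulator of autophagy, -0.73 (0.022), Tbc1d1, the relative of Tbc1d4, -0.61 (0.0246), and Tbc1d30, well above background on 2 sh8 and 1 WT arrays, 0.49 (0.0254).

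Of 55 effectors, 7 were higher in sh8 and 11 lower (12.7% and 20%, against 16.8% and 10.3% of all features), with a median of -0.044. The 4 with the lowest p were all lower. Osbpl1a, a sterol sensor that binds Rab7, had -1.42 (limma adjusted p = 0.012), Gcc1, a golgin, -1.04 (0.0148), Ehbp1l1, an effector of Rab8, -0.80 (0.0124), and Acap2, an effector of Rab35, -0.68 (0.0142). At day +2 against day 0, 4 effectors were higher and 4 lower (7.27% each, against 9% and 2.89% of all features). The motor Myo5b, an effector of Rab11 and Rab25, was at least 4.67-fold higher (adjusted p = 0.0105), and it was well above background on 2 sh8 and 3 WT arrays, neither of them at day 0. Of the activators 1 was higher and 1 lower (2.27% each). Dennd1c was well above background on the 4 arrays of the second slide alone and at least 1.34-fold higher, and Dennd1b had -0.71.

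Genes of insulin-driven GLUT4 traffic, the best known Rab task in fat cells, had 2 of 13 higher in sh8 and 3 lower (median -0.055). These counts are 15.4% and 23.1%, against 16.8% and 10.3% of all features. The lower ones were Sort1, which sorts GLUT4 into storage vesicles (-0.81 ± 0.11 SE, limma adjusted p = 0.0156), the surface SNARE Stx4a (-0.69, 0.0142) and Tbc1d1. The vesicle SNARE Vamp2 was higher by 0.69 (0.0228). At day +2 against day 0, 3 of the 13 were higher and none lower (23.1% and 0%, against 9% and 2.89% of all features). These were the transporter gene Slc2a4 itself (at least 1.24-fold, adjusted p = 0.0258), Tbc1d4 (1.67, 0.0178) and Lnpep, a cargo of the same vesicles (0.69, 0.0392). Slc2a4 was not well above background at day 0, and only 2 arrays of sh8 and 2 of WT measured it. The Rabs of this pathway, Rab8a, Rab10, Rab13 and Rab14, had no call in that comparison.

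Marker lists of the cells themselves were read between the lines too. Over all features 16.8% were higher in sh8 and 10.3% lower, and the lung epithelium list (20% and 10%) lay near these shares. Of 13 adipocyte markers, 4 were lower in sh8 and none higher (median -0.56), and of 9 fibroblast and preadipocyte markers, 3 were higher and 2 lower. Of 13 macrophage markers, 6 were higher and none lower (median 0.46, or 0.39 with 1 marker at its bound), among them Aif1 (0.73 ± 0.097 SE, limma adjusted p = 0.0151) and Lyz2 (0.87, 0.0383). The log2 of their summed level ran from 2.84 to 3.09 in sh8 and from 2.44 to 2.65 in WT. Of 6 melanocyte markers, 1 was higher (Tyr, 0.50) and none lower. Of the epithelial markers 3 of 13 were higher and none lower, and of the lung epithelium markers 2 of 10 were higher and 1 lower. The part of any of these lists in the differences of the Rab genes was not tested.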

How the data were processed

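RNA of each line and day was hybridised to 1 Agilent array, labelled with Cy3, starting with 1 µg RNA per the labels' protocols. Per the file headers, the authors extracted each spot's processed intensity with Agilent Feature Extraction 11.0.1.1. The authors also deposited a log2 value table whose columns all have a median of 6.38. Each column correlated with the scanner values of its own array (lowest r over probes 0.994), and correlations with the other arrays were not computed. The direction of this table is that of the scanner values, and the steps behind it are not given in the sources used here.

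Of 44397 spots per array, 1377 controls were left out, repeat spots were averaged to 39429 probes, and 46 probes were dropped for outlier flags. Through RefSeq accessions 27207 probes received a symbol and 12176 did not. The file headers name another genome build than the RefSeq table, whose coordinates belong to GRCm38.p6 alone. Log2 intensities were centred on each array's 75th percentile, probes well above background on at least 2 of 8 arrays were kept, and each gene was given by the brightest probe.

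Line and day were fitted with limma 3.58.1 in R 4.3.3 (with the package data.table, version 1.17.8) on 3 residual degrees of freedom. The code was run on simulated data with independent errors and no slide or position effect. That run checks the code and not the design of these samples. Alternatives were normexp (offset 50) with quantile scaling, which used the median spot signal in place of the mean signal that had been planned, quantile scaling alone, the authors' table, 2 filters, probe means, an intensity trend, slides and days left out. Rab12, Rab29, Rab genes past the threshold with a difference of at least 1, and up to 3 genes each way with the lowest p in other comparisons are given on every array by rule, and others where their daily values are described. Of each other list, those past the threshold are named (at most 4, by lowest p), and where none passed at most 2 are given. The members, lists and rules were chosen with earlier results of these data known.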

Additional observations from a re-analysis of the deposited data

How the results depend on the processing

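Against 7 Rab genes higher and 11 lower in sh8 than in WT, the count of higher genes was 4 with normexp and quantile scaling, 3 with quantile scaling, 2 with the authors' table, 3 on the second slide alone, 3 with a slide block replacing day, and 0 on the first slide. The count of lower genes was 7 without a filter on dim probes, 7 with the slide block, 7 on the second slide and 0 on the first. Leaving out 1 day gave 0 to 4 higher and 0 to 7 lower genes. The median Rab difference was -0.10 on the second slide and ran from -0.097 to -0.0033 when 1 day was left out. On the first slide alone Rab12 differed by -8.91 and Rab29 by -5.37, each with an adjusted p of 0.121, and since sh8 had no Rab12 signal well above background there, the values hold only that Rab12 was at least 101-fold lower. Leaving out 1 day gave -7.51 to -6.07 for Rab12 and -4.88 to -4.24 for Rab29. The filter that asks for all 8 arrays has no value for Rab12 and takes the second probe of Rab29 (-1.47). At day 0 against day -2, 6 Rab genes passed with an intensity trend, 5 with normexp and 3 with the strict filter. At day +2 against day 0, 8 became 3 without a filter, 3 with quantile scaling, 3 with the authors' table, 4 with the strict filter and 2 to 4 with a day left out. For the change after induction the trend gave 3, normexp 2 and the strict filter 1 in place of 0. At day +4 against day +2 every setting gave 0. Of Rab genes at least 2-fold apart, day +2 had 3 with normexp in place of 8, and day +4 had 5 with quantile scaling, 5 with the authors' table and 1 with the strict filter in place of 3. The shares of all features called under these other settings are not given here, so none of these counts can be read as particular to Rab genes. No value changed sign, and for each result that moved or lost its call the cause was not tested. Fits with a day left out or 1 slide also hold fewer samples. Fewer samples leave 2 or fewer residual degrees of freedom. Signal near background limits Rab9b, Rab25, Rab27a and Rab38, which 3 or 4 arrays measured. The model of day and line pairs the lines by day, since it compares them within each day. Each line and day has a single array, so no replicate numbers pair samples beyond the day.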
